A study of Homo sapiens with 40 samples.

Results

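A total of 9 genes, from families that hold feedback inhibitors of growth factor receptor signalling, were followed through ligand treatment of HER2-positive breast cancer cells. They were the Sprouty genes SPRY1, SPRY2 and SPRY4, the SPRED genes SPRED1, SPRED2 and SPRED3, the receptor inhibitor ERRFI1, and the membrane proteins LRIG1 and LRIG3. Members were the rows of the count table whose gene name equalled one of these names, and all 9 were found among 44584 names. SPRY4 and ERRFI1 rose within 1 h of either ligand in both lines. In BT474, SPRED1, SPRED2 and SPRY1 passed the test at 12 h and 24 h of either ligand and not at 1 h. SPRY2 and LRIG3 passed the test in no comparison of ligand with vehicle. In BT474R, SPRY4 stood at 4.15 and ERRFI1 at 3.49 times their vehicle levels at 24 h of EGF. By then the vehicle libraries of both genes lay below those of T0. The EGF level itself was highest at 12 h for SPRY4 and at 1 h for ERRFI1.

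Ligand binding to receptors of the ERBB family activates RAS and, through RAF and MEK, the kinase ERK. Sprouty proteins restrain this route between receptor and RAF, and SPRED proteins bring the RAS inactivator NF1 to the membrane. ERRFI1, also called MIG6, binds the kinase domain of EGFR and its relatives and blocks it, while LRIG1 is a transmembrane protein that promotes degradation of ERBB receptors. Several of these genes are themselves induced by ERK activity, so that their RNA is often read as a sign of feedback.

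RNA was sequenced from BT474, a HER2-amplified human breast cancer line that responds to the HER2 antibody trastuzumab, and from BT474R, clone 5 of that line selected by growth in trastuzumab. BT474R is therefore a single clone, and a difference between the lines cannot be told apart from a property of that clone. Cells of all groups were deprived of serum, and T0 was harvested at the end of that time with no addition. The other groups received fresh starvation medium with 50 ng/mL EGF, a ligand of EGFR, 10 ng/mL heregulin (HRG), a ligand of HER3 and HER4, or water as vehicle, and were harvested at 1 h, 12 h or 24 h. This gave 20 groups of 2 libraries, 40 in all. Replicates are known only by number, so the p-values measure the spread between these libraries, which may be technical.

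A library held between 16794594 and 33387936 counts. Levels are given as CPM, a gene's counts scaled to a common library size with TMM factors over all libraries, in the order replicate 1 and replicate 2. A gene was called when edgeR's quasi-likelihood test gave an adjusted p (Benjamini-Hochberg over all genes tested) below 0.05. The 5 epithelial markers and the 5 luminal HER2 markers each averaged at least 1 CPM in both lines, whereas 0 of 4 leukocyte markers did. COL1A1 was the sole fibroblast marker of 5, and VWF the sole endothelial marker of 4, to reach that level. The summed fibroblast markers stood between 75.1 and 105 CPM in BT474 and between 169.5 and 295 CPM in BT474R. Their part in the differences between the lines was not tested. Within each group the libraries differed by more than counting noise, with a median chi-square over genes between 0.595 and 2.56, against 0.455 for counting noise alone. The largest of these values belonged to HRG at 24 h in BT474R. In bulk RNA, fewer cells with a transcript and less transcript per cell cannot be told apart.

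The sequence upstream of the start is shown for ERRFI1 and SPRY4, which rose first after ligand, and for SPRY2, which did not pass the test after ligand. Each window is the 250 bases before a RefSeq transcription start (GRCh38.p14, minus strand, written 5′ to 3′ along the gene), at chr1:8026310-8026559 for ERRFI1, chr5:142324248-142324497 for SPRY4 and chr13:80341127-80341376 for SPRY2. Capitals mark matches, on either strand, to 4 motifs. They are the EGR motif, spelled GCGNGGGCG, the core of the CRE motif, spelled TGACG, an ETS motif, spelled CCGGAA, and the TATA-like run of letters TATATA.

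ERRFI1: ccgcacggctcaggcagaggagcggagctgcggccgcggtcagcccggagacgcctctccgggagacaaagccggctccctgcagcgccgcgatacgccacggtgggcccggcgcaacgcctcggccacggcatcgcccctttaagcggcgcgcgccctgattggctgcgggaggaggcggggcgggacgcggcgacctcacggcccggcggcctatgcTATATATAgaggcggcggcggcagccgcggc
SPRY4: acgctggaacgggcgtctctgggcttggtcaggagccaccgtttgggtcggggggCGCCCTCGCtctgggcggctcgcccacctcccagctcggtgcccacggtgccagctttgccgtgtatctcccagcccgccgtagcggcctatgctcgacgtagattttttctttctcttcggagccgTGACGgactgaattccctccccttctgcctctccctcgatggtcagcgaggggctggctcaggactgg
SPRY2: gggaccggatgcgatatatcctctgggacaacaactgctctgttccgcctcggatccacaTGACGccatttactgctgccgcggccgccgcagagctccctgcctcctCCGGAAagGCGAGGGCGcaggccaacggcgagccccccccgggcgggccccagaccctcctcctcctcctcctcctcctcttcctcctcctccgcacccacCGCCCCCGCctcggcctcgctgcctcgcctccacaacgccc

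In ERRFI1 the capitals are 2 overlapping TATATA matches that span 31 to 24 bases before the start, a run whose letters were chosen for the search after the sequence had been read. SPRY4 held 1 EGR and 1 CRE core match. The SPRY2 window shown held 2 EGR matches, 1 CRE core match and 1 ETS match. The EGR motif and the CRE core were thus found both in SPRY4, which rose, and in SPRY2, which was not called. Among the windows shown, TATATA was found in that of ERRFI1 alone and the ETS motif in that of SPRY2 alone. Whether any of these motifs bears on the response was not tested. SPRY2 had further RefSeq windows, not shown, that held no match to the motifs searched. The SPRY4 window lies inside the gene as annotated in GENCODE v44, whereas those shown for ERRFI1 and SPRY2 adjoin the 5′ end of the gene, so the windows are not alike. Over all 35116 RefSeq windows of this length, 8.41% held the EGR motif, 21.2% the CRE core, 14.5% the ETS motif and 3.73% the TATA-like run. The AP-1 motif, spelled TGANTCA, occurred in 6.57% and the CArG box in 1.16% of windows, and neither was found in the 3 windows shown.

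The genes lie at chr4:123396795-123403760 (SPRY1, plus strand), chr13:80335976-80341126 (SPRY2, minus), chr5:142310427-142326455 (SPRY4, minus), chr15:38252836-38357249 (SPRED1, plus) and chr2:65310851-65432637 (SPRED2, minus) in GENCODE v44 (GRCh38). SPRED3 lies at chr19:38388421-38399587 (plus), ERRFI1 at chr1:8004404-8026309 (minus), LRIG1 at chr3:66378797-66501263 (minus) and LRIG3 at chr12:58872149-58920504 (minus).

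Before any ligand the members differed widely in level. Per kilobase of exon (GENCODE v44, GRCh38), SPRED2 lay at 11.8 to 12.5 CPM per kilobase at T0 in BT474. LRIG1 lay at 7.06 to 7.60 and ERRFI1 with 6.87 to 7.06 CPM per kilobase, ranges that nearly met. The table holds a second numbered LRIG1 row, and with both rows summed LRIG1 lay at 13.1 to 14.0 CPM per kilobase, above SPRED2, so the order of these genes depends on how that row is treated. LRIG3 lay at 3.04 to 3.15 and SPRED1 at 2.22 to 2.49 CPM per kilobase. SPRY1 (1.47 to 1.51) overlapped with SPRY4 (1.34 to 1.53), and SPRED3 (0.851 to 0.901) with SPRY2 (0.868 to 0.878 CPM per kilobase). In BT474R at T0 the order began with SPRED2 (22.2 to 22.5), LRIG1 (9.01 to 9.48) and SPRY4 (7.35 to 8.40 CPM per kilobase), and SPRY2 was again low (0.579 to 0.947). With its rows summed, LRIG1 lay at 17.3 to 17.4 CPM per kilobase in BT474R, below SPRED2.

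SPRY4, an inhibitor of RAS-ERK signalling, showed the widest gap between the lines at T0. It stood at 8.82 and 10.03 CPM in BT474 and at 55.1 and 48.2 CPM in BT474R, so the groups did not overlap. The difference was 5.49-fold (log2 2.46, SE 0.12, adjusted p 3.23e-19, edgeR). SPRY1 was 2.82-fold higher in BT474R, with 5.84 and 5.97 CPM in BT474 and 17.6 and 15.7 CPM in BT474R. SPRED1, SPRED2 and SPRED3 were higher by log2 0.93, 0.87 and 0.96, and LRIG3 and LRIG1 by 0.41 and 0.33. ERRFI1 was the sole member called lower in BT474R, by a log2 of -0.20 (adjusted p 0.0487). That call was lost without BT474 T0 replicate 2 (log2 -0.21, adjusted p 0.0962) and without BT474R T0 replicate 1 (-0.20, 0.132) or replicate 2 (-0.27, 0.0526). SPRY2 was not called (log2 -0.16, adjusted p 0.618), and its groups overlapped. In all, 7 of 9 members were called higher and 1 lower in BT474R, where 46.9% of all genes tested were called in either direction.

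Several members differed between the vehicle groups and T0. The vehicle groups differ from T0 in fresh medium, handling and time as well as added water, which cannot be told apart here. In BT474, 6 of 9 members were called 1 h after vehicle against T0, all higher, where 6.61% of all genes were called. SPRY4 went from 8.82 and 10.03 CPM to 19.8 and 20.2 CPM, SPRY1 from 5.84 and 5.97 CPM to 11.0 and 11.5 CPM, and ERRFI1 from 28.7 and 29.5 CPM to 51.5 and 54.6 CPM. These rises were 2.15-fold, 1.93-fold and 1.84-fold. SPRED2 rose by log2 0.37, SPRY2 by 0.68 and LRIG1 by 0.18. The SPRY2 and LRIG1 calls were each lost on leaving out any 1 of the 4 libraries, with log2 values from 0.66 to 0.70 and from 0.13 to 0.23. They were also lost with DESeq2, at adjusted p 0.0519 for SPRY2 and 0.0705 for LRIG1.

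In BT474R, ERRFI1 rose after 1 h of vehicle by a log2 of 0.89, SPRED2 by 0.38 and SPRY1 by 0.64, SPRED3 fell by 0.54, and 2.24% of all genes were called. SPRY4 had 67.3 and 63.7 CPM after vehicle against 55.1 and 48.2 CPM at T0, which was not called (adjusted p 0.0831). The SPRED3 call was lost without any 1 of the 4 libraries (log2 -0.60 to -0.48). That of SPRY1 was lost without replicate 2 of T0 (0.56, adjusted p 0.0617) or of vehicle (0.54, adjusted p 0.0555).

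At 24 h of vehicle in BT474, SPRY1 was above T0 by a log2 of 0.46, SPRED3 by 0.47 and SPRY4 by 0.36, where 11.4% of all genes were called. Without BT474 T0 replicate 1, these values became 0.45, 0.43 and 0.26, and without vehicle replicate 2 they became 0.41, 0.37 and 0.20, in each case no longer called. In BT474R, SPRY4 had fallen to 28.4 and 25.7 CPM, below both T0 libraries (log2 -0.92, SE 0.11, adjusted p 9.79e-06). SPRED1, SPRED2, LRIG1 and ERRFI1 fell by 0.35, 0.32, 0.35 and 0.38 on the log2 scale, SPRY1 rose by 0.42, and 13.7% of all genes were called. Without T0 replicate 2 the ERRFI1, SPRED1 and SPRY1 calls were lost (-0.34, -0.31 and 0.35). They were also lost without vehicle replicate 1 for ERRFI1 (-0.27) and SPRED1 (-0.31), and without vehicle replicate 2 for SPRY1 (0.26).

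Against the vehicle of the same time point, 44 of the 108 tests of members (9 members, 12 comparisons) were called higher and 2 lower. EGF and HRG were compared with the same vehicle libraries, so their effects are not independent of each other. In BT474, 2 of 9 members were called after 1 h of EGF and 5 of 9 after 12 h and after 24 h, where 2.19%, 16% and 16.4% of all genes were called. HRG gave the same numbers of members, against 2.77%, 25.8% and 24.1% of all genes. In BT474R, EGF called 2, 6 and 6 members at the successive times against 0.457%, 12% and 17.3% of genes, and HRG called 2, 3 and 3 members against 0.169%, 4.12% and 2.78%. The median log2 fold change of the 9 members at 12 h was 0.41 with EGF and 0.57 with HRG in BT474, where that of all genes was -0.03 and -0.02. In BT474R it was 0.30 and 0.18, against -0.01 and -0.02 for all genes. The members were chosen with earlier results of these data known, so the contrast with all genes is not an independent test.

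**Figure D1:**
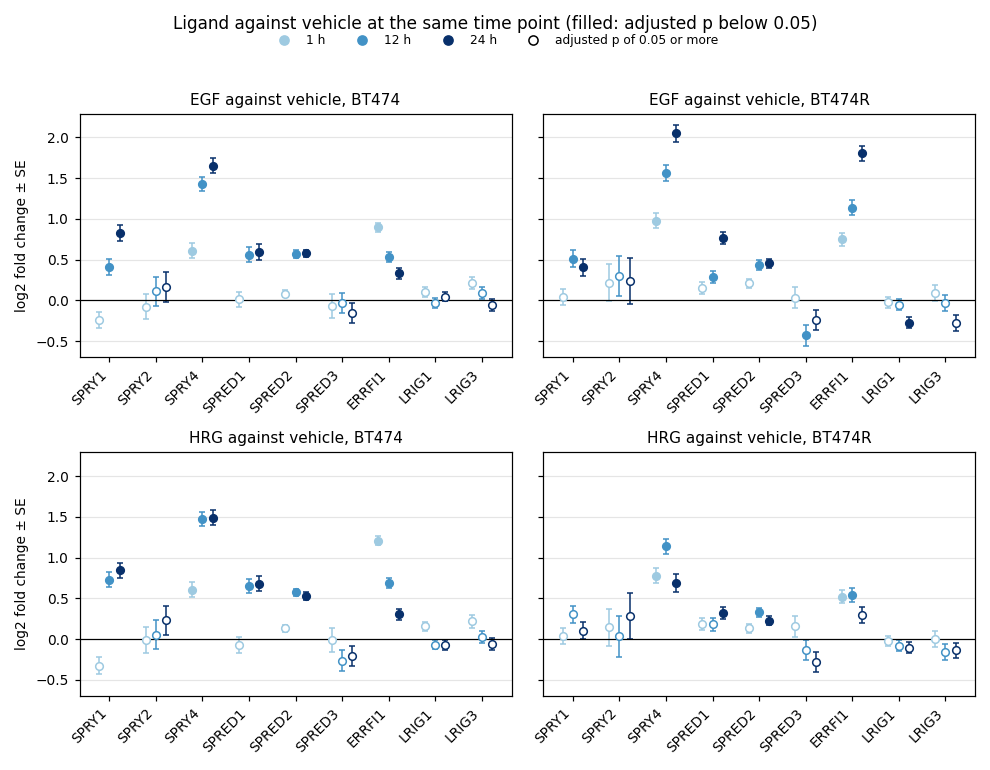
Log2 fold change of each member against vehicle (y axis, ± SE, n = 2 libraries per group) after EGF (top) or HRG (bottom) in BT474 (left) and BT474R (right), with filled points for an adjusted p below 0.05. The SE comes from the fit of all 20 libraries of the line, not from the groups compared alone. SPRY4 is filled in all panels and times, whereas SPRY2 and LRIG3 are open throughout, and ERRFI1 declines with time in BT474 but climbs to 1.80 with EGF in BT474R.

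SPRY4 was the sole member called in all 12 comparisons of ligand with vehicle. In BT474 it stood at 30.2 and 31.9 CPM after 1 h of EGF and at 30.7 and 30.8 CPM after 1 h of HRG, against 19.8 and 20.2 CPM with vehicle. At 12 h it reached 38.6 and 42.6 CPM with EGF and 42.8 and 41.6 CPM with HRG, against 15.7 and 14.0 CPM. At 24 h it was at 36.7 and 39.3 CPM with EGF and at 31.0 and 37.8 CPM with HRG, against 10.7 and 13.1 CPM. No ligand library overlapped with its vehicle, and the log2 fold changes were 0.61, 1.43 and 1.65 for EGF and 0.61, 1.47 and 1.49 for HRG (SE 0.09 for each). The effect at 12 h exceeded that at 1 h by a log2 of 0.82 with EGF and 0.86 with HRG (adjusted p 1.09e-05 and 2.1e-06). Over the same times the vehicle level itself went down, so the effect grew more than the level did.

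In BT474R, SPRY4 reached its highest levels of all groups. EGF gave 126 and 132 CPM at 1 h, 142 and 147 CPM at 12 h and 110.4 and 114 CPM at 24 h. The vehicle libraries were at 67.3 and 63.7, 50.7 and 47.2, and 28.4 and 25.7 CPM at these times. The EGF effect was a log2 of 0.98, 1.56 and 2.05, the last being 4.15-fold (SE 0.10, adjusted p 8.73e-12). With HRG the gene was at 113 and 111 CPM at 1 h and 108 and 109 CPM at 12 h, and then at 35.4 and 51.3 CPM at 24 h. The HRG effect was a log2 of 0.78, 1.14 and 0.69. At 24 h the HRG libraries lay further apart than in any other SPRY4 group of this line relative to their mean, yet both were above the vehicle. Without HRG replicate 2 the effect was 0.40. With only the 4 libraries compared in the fit it was 0.67 and not called (adjusted p 0.828), with an SE of 0.19 against 0.11 in the main fit. An antisense gene, SPRY4-AS1, had at most 51 counts in any library, and the strand setting of the counting is not given in the sources used here, so that its reads and those of SPRY4 may not be fully separated.

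SPRY1, a second Sprouty gene, passed the test only at the later times. At 1 h in BT474 it had 9.52 and 9.81 CPM with EGF and 8.91 and 9.23 CPM with HRG, below the vehicle at 11.0 and 11.5 CPM, and neither difference was called (adjusted p 0.287 and 0.0888). At 12 h it was at 11.7 and 11.0 CPM with EGF and at 15.0 and 13.7 CPM with HRG, above the vehicle at 8.49 and 8.39 CPM. At 24 h it was at 13.9 and 15.2 CPM with EGF and at 14.5 and 15.2 CPM with HRG, against 7.76 and 8.43 CPM. The log2 fold changes at 12 h and 24 h were 0.41 and 0.83 for EGF and 0.73 and 0.84 for HRG. Its HRG effect grew by a log2 of 1.05 from 1 h to 12 h (SE 0.14, adjusted p 3.77e-07) and its EGF effect by 0.66 (adjusted p 0.00136).

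In BT474R at 24 h, SPRY1 levels were 28.1 and 30.6 CPM with EGF, 22.1 and 25.0 CPM with HRG and 19.9 and 24.6 CPM with vehicle, so that the EGF group lay above and the HRG group overlapped. EGF raised it by a log2 of 0.51 at 12 h and 0.40 at 24 h, and HRG did not pass the test (0.31 and 0.10, adjusted p 0.109 and 0.72). The EGF call at 24 h was lost without vehicle replicate 1 (0.25, adjusted p 0.186) and without EGF replicate 2 (0.35, adjusted p 0.0783).

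SPRY2, the third Sprouty gene, was low throughout, from 1.61 to 4.84 CPM and from 31 to 125 counts per library. It was called in 0 of 12 comparisons with edgeR, in 0 with DESeq2, and had an unadjusted p below 0.05 in 0. Its log2 fold changes lay between -0.08 and 0.30 with SE between 0.15 and 0.29, so that differences of this size were not detectable at this depth. The highest SPRY2 levels in BT474 were those at 1 h, in vehicle (4.53 and 4.41 CPM), EGF (4.41 and 4.20 CPM) and HRG (4.84 and 4.06 CPM) alike.

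**Figure D2:**
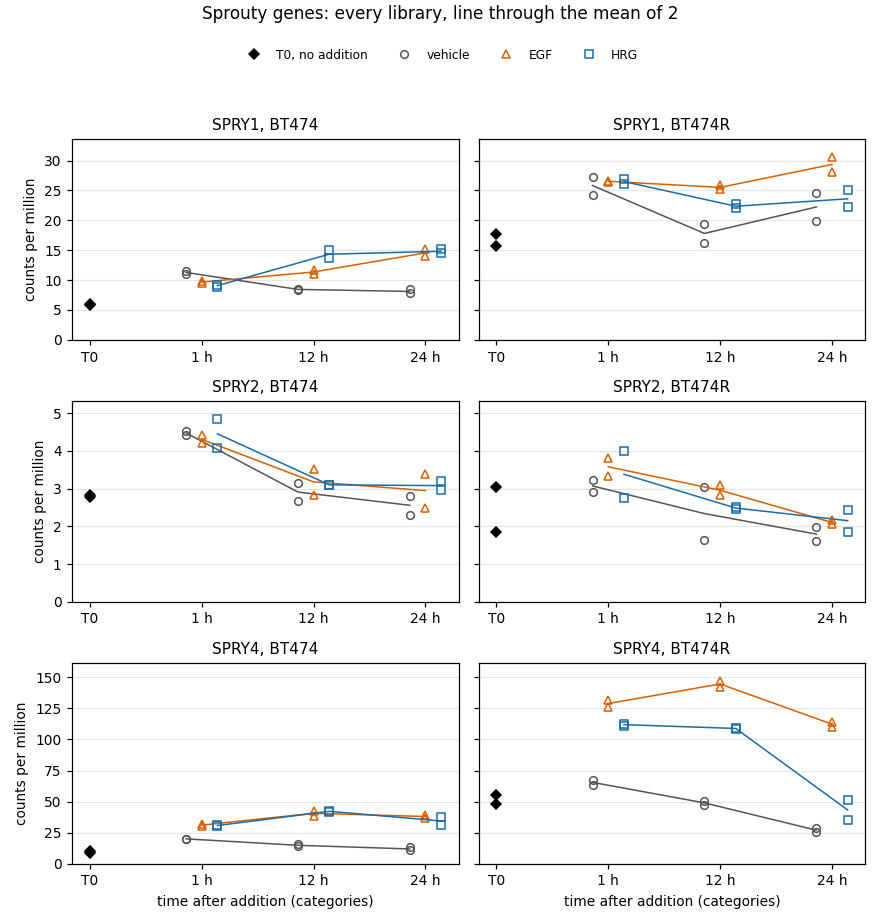
CPM (y axis, from 0) of SPRY1, SPRY2 and SPRY4 in every library by time (x axis, categories) for BT474 (left) and BT474R (right), with lines through the mean of the 2 libraries. SPRY4 with EGF in BT474R stays between 110.4 and 147 CPM while its vehicle falls to 28.4 and 25.7 CPM, and SPRY2 stays under 5 CPM in all groups.

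Of the SPRED genes, which act on RAS together with NF1, SPRED2 was the most abundant and the most even between replicates. In BT474 at 12 h it was at 110.5 and 115 CPM with EGF and 115 and 113 CPM with HRG, against 74.3 and 75.7 CPM with vehicle. At 24 h it was at 109.7 and 107 CPM with EGF and at 106 and 106 CPM with HRG, against 72.8 and 71.9 CPM. Ligand and vehicle did not overlap at either time, and the log2 fold changes were 0.57 and 0.58 for EGF and 0.57 and 0.53 for HRG (SE 0.05 for each). At 1 h it was not called with EGF (0.08) or HRG (0.13). The growth from 1 h to 12 h was a log2 of 0.49 with EGF and 0.44 with HRG (adjusted p 9.01e-07 and 2.55e-06).

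In BT474R, SPRED2 levels at 12 h were 165 and 169.8 CPM with EGF, 156 and 159 CPM with HRG and 124 and 123 CPM with vehicle. At 24 h they were 135 and 134 CPM with EGF, 104 and 123 CPM with HRG and 98.0 and 97.9 CPM with vehicle. All ligand libraries lay above the vehicle, by a log2 of 0.43 and 0.45 with EGF and of 0.33 and 0.23 with HRG. The HRG call at 24 h was lost without HRG replicate 2 (0.10, adjusted p 0.421), without vehicle replicate 1 (0.21, 0.286) or replicate 2 (0.24, 0.0592), and in a fit of the 4 libraries alone (0.20, 0.828).

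SPRED1, a related inhibitor, was less abundant. In BT474 its 12 h levels were 31.7 and 28.7 CPM with EGF, 31.0 and 33.9 CPM with HRG and 19.8 and 20.7 CPM with vehicle, with no overlap. It was higher by a log2 of 0.56 with EGF and 0.65 with HRG at 12 h, and by 0.59 and 0.68 at 24 h. In BT474R, EGF gave 43.3 and 42.2 CPM at 12 h and 47.6 and 44.8 CPM at 24 h, against vehicle at 34.2 and 35.7 CPM and at 26.4 and 27.9 CPM. This was a log2 of 0.29 and 0.77, of which the first was lost without vehicle replicate 1 (0.27, adjusted p 0.0952) or EGF replicate 1 (0.26, adjusted p 0.118). HRG at 24 h gave 30.8 and 36.3 CPM (0.32, adjusted p 0.0274), lost without HRG replicate 2 (0.20, adjusted p 0.266), without vehicle replicate 1 (0.27, adjusted p 0.364) and with the 4 libraries alone (0.30, adjusted p 0.828).

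SPRED3 was the least abundant SPRED gene, from 3.93 to 11.2 CPM, and was called higher in 0 of 12 ligand comparisons by edgeR. Its unadjusted p was below 0.05 in 3 of the 12, counting both directions, and DESeq2 called 0. At 1 h of HRG in BT474R its libraries lay above the vehicle, at 7.73 and 7.46 CPM against 6.81 and 6.88 CPM, and the test was not passed (log2 0.16, SE 0.13). Its single call was a lower level after 12 h of EGF in BT474R, at 7.07 and 5.98 CPM against 9.22 and 8.45 CPM (log2 -0.43, SE 0.13, adjusted p 0.0327). The call was lost with DESeq2 (-0.42, adjusted p 0.0726), without vehicle replicate 1 (-0.36) or replicate 2 (-0.47), and without EGF replicate 2 (-0.31).

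**Figure D3:**
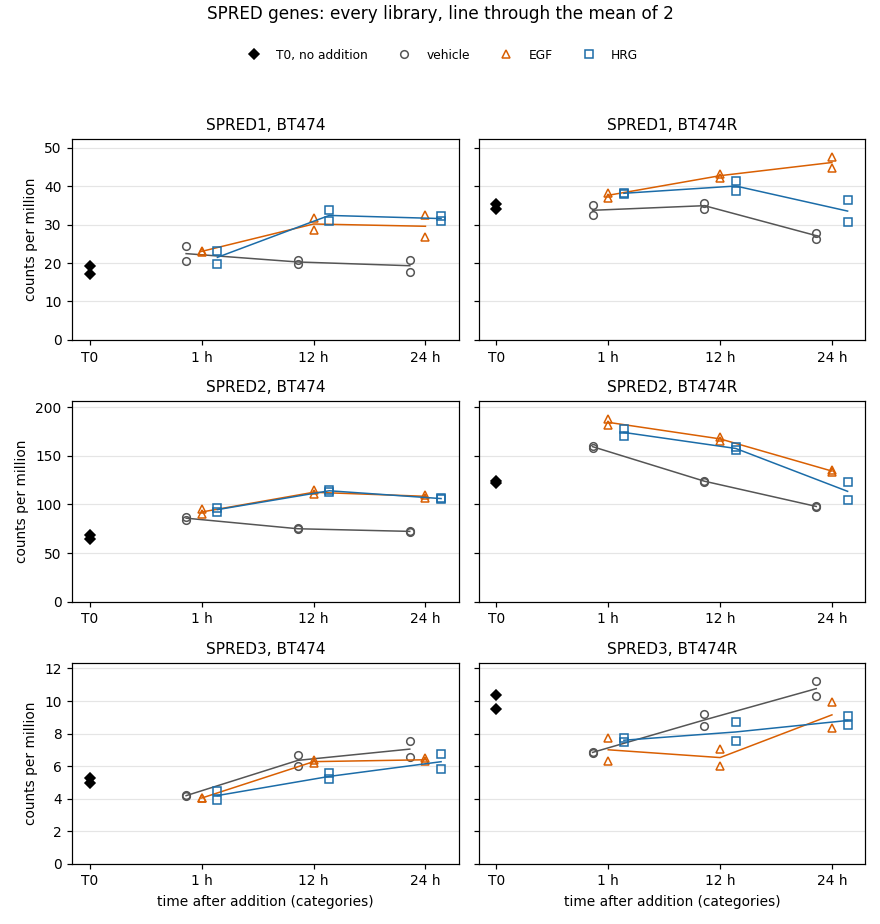
CPM (y axis, from 0) of SPRED1, SPRED2 and SPRED3 in every library by time (x axis, categories) for BT474 (left) and BT474R (right), with lines through the mean of the 2 libraries. SPRED1 and SPRED2 with ligand lie above vehicle at 12 h and 24 h in BT474, and the 2 HRG libraries of SPRED2 at 24 h in BT474R stand apart at 104 and 123 CPM.

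ERRFI1, the inhibitor of the EGFR kinase, had the largest log2 effect of the members at 1 h in BT474. After 1 h it was at 99.0 and 102 CPM with EGF and 125 and 122 CPM with HRG, against 51.5 and 54.6 CPM with vehicle. These were rises of 1.86-fold (log2 0.90, SE 0.05, adjusted p 8.74e-16) and 2.31-fold (1.21, SE 0.05, adjusted p 6.17e-20). At 12 h the levels were 41.5 and 43.3 CPM with EGF, 47.2 and 48.3 CPM with HRG and 29.1 and 28.9 CPM with vehicle. By 24 h they were 34.4 and 36.3, 33.8 and 36.3, and 26.3 and 29.4 CPM. The ligand groups stayed above the vehicle, but the log2 effect shrank to 0.53 and then 0.33 with EGF, and to 0.69 and then 0.30 with HRG. The effect at 12 h was below that at 1 h by a log2 of -0.36 with EGF and -0.52 with HRG (adjusted p 0.00304 and 1.03e-05). With HRG the step from 12 h to 24 h was also called (-0.39, adjusted p 0.00704). That last call was lost without HRG 12 h replicate 2 (-0.36), vehicle 24 h replicate 2 (-0.30) or HRG 24 h replicate 1 (-0.34), and in 1 fit of both lines (-0.39, adjusted p 0.0573).

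In BT474R the EGF effect on ERRFI1 was largest at 24 h. The gene was at 79.3 and 77.8 CPM at 1 h, 59.9 and 53.5 CPM at 12 h and 62.2 and 73.0 CPM at 24 h, while the vehicle was at 44.7 and 48.8, 26.6 and 25.0, and 17.9 and 20.9 CPM. The effect was a log2 of 0.75, 1.14 and 1.80 (SE 0.08, 0.09 and 0.09), although the level itself was highest at 1 h. The step from 12 h to 24 h was called (0.66, adjusted p 0.0258), and that from 1 h to 12 h was not (0.39, adjusted p 0.0651). The 24 h step was lost in 5 of 8 fits without 1 library, namely without vehicle 12 h replicate 1 (0.61) or replicate 2 (0.68), EGF 12 h replicate 2 (0.58), vehicle 24 h replicate 1 (0.54) or EGF 24 h replicate 2 (0.55).

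With HRG in BT474R, ERRFI1 levels were 69.5 and 64.3 CPM at 1 h, 37.2 and 38.7 CPM at 12 h and 22.3 and 24.9 CPM at 24 h, each above its vehicle. The log2 fold changes were 0.52 and 0.54 at 1 h and 12 h, and 0.30 at 24 h, where the test was not passed (adjusted p 0.114). The call at 1 h was lost without replicate 1 of the vehicle (0.46, adjusted p 0.137) or of HRG (0.46, adjusted p 0.0717).

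LRIG1 and LRIG3, the membrane members, passed the test in 1 and 0 of the 12 ligand comparisons. LRIG1 lay between 45.9 and 65.6 CPM over all BT474 libraries and between 38.2 and 74.7 CPM over those of BT474R. Its single call after ligand was a lower level at 24 h of EGF in BT474R, at 46.0 and 38.2 CPM against 52.0 and 49.8 CPM (log2 -0.28, SE 0.07, adjusted p 0.00698). Without EGF replicate 1 the value was -0.42, and without EGF replicate 2 it was -0.14 and no longer called (adjusted p 0.207). The call was also lost without vehicle replicate 1 (-0.24, adjusted p 0.0724) and with the 4 libraries alone (-0.28, adjusted p 0.0588). The table holds a second row with the LRIG1 name and a number, which took between 43.2% and 49.8% of the summed reads. In that row the same difference was -0.18 (adjusted p 0.0518), so LRIG1 values are uncertain to the extent that reads were split between the rows.

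LRIG3 was at 17.4 to 22.2 CPM in BT474 and at 18.9 to 25.5 CPM in BT474R. It was called in 0 of 12 ligand comparisons by edgeR and in 0 by DESeq2, with an unadjusted p below 0.05 in 3. The largest difference was at 24 h of EGF in BT474R, at 19.8 and 19.7 CPM against 24.7 and 23.1 CPM with vehicle (log2 -0.28, SE 0.10, adjusted p 0.0521), where the groups did not overlap. At 1 h in BT474 the direction was the opposite, with 20.7 and 20.5 CPM after EGF and 20.3 and 20.8 CPM after HRG. The vehicle was at 17.4 and 17.7 CPM, without overlap. These differences (log2 0.21 and 0.22) were not called by edgeR (adjusted p 0.201 and 0.163).

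**Figure D4:**
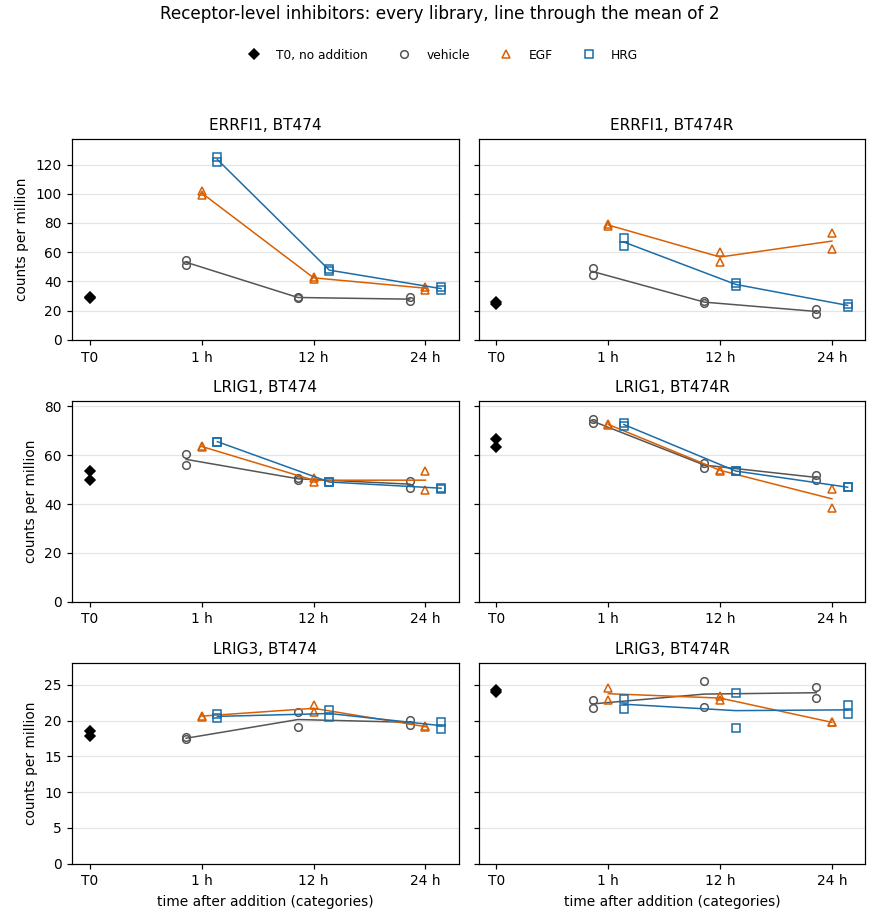
CPM (y axis, from 0) of ERRFI1, LRIG1 and LRIG3 in every library by time (x axis, categories) for BT474 (left) and BT474R (right), with lines through the mean of the 2 libraries. ERRFI1 peaks at 1 h in BT474, at 125 and 122 CPM with HRG, while with EGF in BT474R it remains at 62.2 and 73.0 CPM at 24 h against 17.9 and 20.9 CPM with vehicle.

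The ligands were then compared directly. In BT474 they differed in 1 member at 1 h, where ERRFI1 was higher with HRG by a log2 of 0.31 (SE 0.05, adjusted p 0.000762) and 0.139% of all genes were called. That call was lost without replicate 1 of HRG (0.29, adjusted p 0.0635) or of EGF (0.29, adjusted p 0.086), in 1 fit of both lines (0.30, adjusted p 0.111) and with the 4 libraries alone (0.31, adjusted p 0.569). At 12 h and 24 h edgeR and DESeq2 each called 0 of 9 members, with 2 and 1 at an unadjusted p below 0.05, and 2.17% and 0.768% of all genes were called. The largest difference at 12 h was that of SPRY1, at 15.0 and 13.7 CPM with HRG and 11.7 and 11.0 CPM with EGF (log2 0.32, SE 0.09, adjusted p 0.0647), and the groups did not overlap. ERRFI1 was also above at 12 h without overlap (0.16, SE 0.06, adjusted p 0.209). With filterByExpr, a replicate block or the 4 libraries alone, 1 member was called at 12 h. At 24 h the largest difference was that of SPRY4 (-0.16, SE 0.08, adjusted p 0.452), whose groups overlapped.

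In BT474R the direct comparison called 0 members at 1 h with edgeR and with DESeq2 (2 at an unadjusted p below 0.05), 2 at 12 h and 4 at 24 h, all lower with HRG. The shares of all genes were 0.0494%, 1.42% and 5.18%. At 12 h ERRFI1 was lower by a log2 of -0.60 (SE 0.08, adjusted p 0.000198) and SPRY4 by -0.42 (adjusted p 0.017), the latter no longer called without any 1 of the 4 libraries (-0.44 to -0.41). At 24 h ERRFI1 was at 22.3 and 24.9 CPM with HRG and 62.2 and 73.0 CPM with EGF (-1.50, SE 0.09, adjusted p 2.98e-10). SPRY4 was at 35.4 and 51.3 CPM against 110.4 and 114 CPM (-1.36, SE 0.10, adjusted p 6.4e-09), and the groups did not overlap for either gene. SPRED1 was lower by -0.45 and SPRED2 by -0.23. The SPRED2 call was lost without HRG replicate 1 (-0.13) and without EGF replicate 1 (-0.21) or replicate 2 (-0.25), and without HRG replicate 2 its value was -0.35. A fit of the 4 libraries alone called 0 of the 4 members at 24 h, with adjusted p from 0.0925 for ERRFI1 to 0.578 for SPRED2, and 0 of all genes.

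Changes of the ligand effect with time were tested for 9 members in 8 comparisons, and 10 were called as growth and 3 as decline. From 1 h to 12 h in BT474, 5 of 9 members were called with EGF and 5 with HRG, against 7.72% and 14.2% of all genes. Besides SPRY4, SPRY1, SPRED2 and ERRFI1, described above, SPRED1 grew by 0.55 with EGF and 0.73 with HRG. Its EGF value was 0.41 and not called without vehicle 1 h replicate 2 (adjusted p 0.109). From 12 h to 24 h in BT474, edgeR and DESeq2 each called 0 with EGF (2 at an unadjusted p below 0.05) and 1 with HRG, against 0.517% and 2.5% of genes. In BT474R, SPRY4 grew by 0.58 from 1 h to 12 h with EGF (adjusted p 0.0123), and ERRFI1 by 0.66 from 12 h to 24 h, with 4.43% and 0.185% of all genes called. The SPRY4 step was lost without replicate 2 of vehicle (0.55, adjusted p 0.0589) or of EGF (0.57, adjusted p 0.0539) at 12 h. With HRG in BT474R edgeR and DESeq2 each called 0 members at both steps, with 2 and 1 at an unadjusted p below 0.05, against 0.992% and 0.0288% of all genes.

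Finally the ligand effects were compared between the lines. For EGF, 0, 1 and 2 members differed at the successive times (1 h, then 12 h, then 24 h), where 0.138%, 1.96% and 4.01% of all genes were called, and DESeq2 also gave 0 at 1 h (1 at an unadjusted p below 0.05). ERRFI1 responded more in BT474R, by a log2 of 0.59 at 12 h (SE 0.11, adjusted p 0.000723) and of 1.47 at 24 h (SE 0.11, adjusted p 1.4e-11). The EGF effect on SPRY4 did not pass the test of difference at 24 h (0.39, SE 0.16, adjusted p 0.198), although its CPM in BT474R was higher at every time. LRIG1 differed at 24 h by -0.33 (adjusted p 0.0339). That call was lost without BT474 vehicle replicate 2 (-0.27), BT474 EGF replicate 1 (-0.20), BT474R vehicle replicate 1 (-0.29) or BT474R EGF replicate 2 (-0.20). It was also lost with its rows summed (-0.23, adjusted p 0.0682), with DESeq2's size factors (-0.30, adjusted p 0.0521) and with no filter (-0.32, adjusted p 0.0532).

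For HRG, 1, 2 and 3 members differed between the lines at those times, all with the smaller effect in BT474R, against 0.544%, 4.07% and 3.33% of all genes. ERRFI1 differed at 1 h (log2 -0.70, SE 0.10, adjusted p 1.32e-05). At 24 h SPRY4 differed by -0.84 (SE 0.16, adjusted p 0.000836), SPRY1 by -0.77 (SE 0.14, adjusted p 0.000404) and SPRED2 by -0.34 (adjusted p 0.00341). SPRED2 lost its call without BT474 vehicle replicate 2 (-0.30, adjusted p 0.0519) or BT474R HRG replicate 1 (-0.21, adjusted p 0.075). At 12 h SPRED1 differed by -0.48 and SPRED2 by -0.26. The SPRED2 call at 12 h was lost without any 1 of the 8 libraries (-0.27 to -0.23). It was also lost with no filter (-0.25, adjusted p 0.0809) and with summed copy rows (-0.24, adjusted p 0.051). The SPRED1 call was lost without BT474 vehicle replicate 1 (-0.43) or 2 (-0.51), BT474 HRG replicate 2 (-0.40), BT474R vehicle replicate 2 (-0.43) or BT474R HRG replicate 2 (-0.43).

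**Figure D5:**
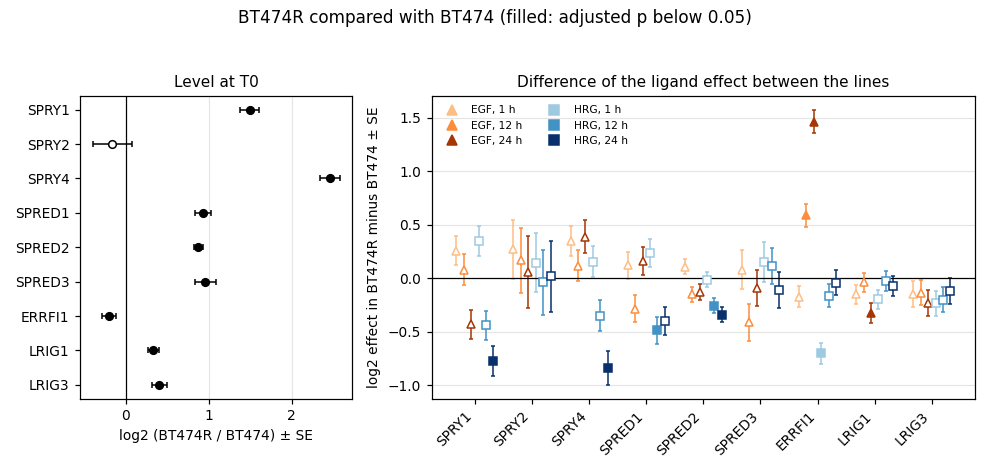
Left, log2 ratio of BT474R to BT474 at T0 (x axis, ± SE) for each member, and right, the log2 ligand effect in BT474R minus that in BT474 (y axis, ± SE) by ligand and time, filled for an adjusted p below 0.05 and with n = 2 libraries per group. The SE comes from the fit of all 40 libraries, not from the groups compared alone. SPRY4 leads at T0 with 2.46, and in the right panel ERRFI1 with EGF at 24 h stands at 1.47 while SPRY4 and SPRY1 with HRG at 24 h stand at -0.84 and -0.77.

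The surrounding pathway was read from 3 lists, which were also chosen with earlier results of these data known. Over all genes, the shares called at 1 h, then 12 h, then 24 h stood at 2.19%, 16% and 16.4% for EGF in BT474, while HRG called 2.77%, 25.8% and 24.1%. In BT474R they stood at 0.457%, 12% and 17.3% for EGF, while HRG called 0.169%, 4.12% and 2.78%, and the counts of the lists are to be read against them. Of 8 genes whose RNA is known to follow ERK activity, 3, 7 and 7 were higher after 1 h, 12 h and 24 h of EGF in BT474, with 0, 1 and 1 lower, and 3, 7 and 7 higher after HRG, with 0, 0 and 1 lower. In BT474R the numbers were 3, 7 and 7 higher with EGF and 1, 5 and 3 with HRG. DUSP6, a phosphatase of ERK, rose at the 3 times by a log2 of 0.69, 1.66 and 1.95 under EGF in BT474, and HRG gave 0.70, 1.75 and 1.94. In BT474R the rise was 0.96, 2.44 and 3.14 under EGF, and HRG gave 0.75, 1.65 and 1.09. EPHA2, an ephrin receptor, rose by 1.91 and 2.62 at 12 h and 24 h of EGF in BT474R, and ETV4, an ETS factor, by 1.98 and 2.18 at 24 h of EGF and HRG in BT474.

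Of 20 other negative regulators of receptors or RAS-ERK, 2, 7 and 6 were higher and 0, 2 and 1 lower with EGF in BT474, and 2, 8 and 6 were higher and 0, 3 and 3 lower with HRG. In BT474R, 2, 3 and 6 were higher and 0, 3 and 3 lower with EGF, and 2, 2 and 2 were higher and 0, 1 and 0 lower with HRG. DUSP5, another ERK phosphatase, rose by a log2 of 1.27 at 1 h of EGF and 1.79 at 1 h of HRG in BT474, and by 0.62 and 0.81 at 24 h. DUSP6 stands in this list too. At 1 h, 0 of 20 receptor to ERK core genes were called with either ligand in either line, where at most 2.77% of all genes were called. In BT474, 4 and 3 of these 20 were higher and 3 and 3 lower at 12 h and 24 h of EGF, and 8 and 4 were higher and 7 and 4 lower with HRG. In BT474R, 1 and 3 were higher and 2 and 2 lower at these times of EGF, and with HRG 1 gene, ERBB4, was called at each time. At 12 h of EGF in BT474R, 3 of 20 core genes were thus called, close to the share of all genes. The same holds for the 1 of 20 called at 12 h and at 24 h of HRG in BT474R, against 4.12% and 2.78% of all genes. ERBB4, the HER4 receptor, fell in all 8 later comparisons, by -0.92 and -0.85 at 12 h and 24 h of EGF and -1.33 and -0.97 of HRG in BT474, and by -1.53 and -1.30 of EGF and -0.95 and -0.63 of HRG in BT474R. HRAS rose in BT474 at those times, 0.45 and 0.29 under EGF, while HRG gave 0.66 and 0.41.

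The genes most like each member were sought by Pearson's r of the mean log2 CPM over the 20 groups, each centred on its line, among 12626 genes. The 20 points are means of 2 libraries and share the time courses of the same cells, and r is given as a description. EPHA2 was closest to ERRFI1 (r = 0.973), followed by AHR (0.965) and KLF2 (0.964). SPRY4 was most like EOLA1 (0.942), SPRED2 (0.935) and DUSP6 (0.933). SPRED2 was most like USP6NL (0.980), ZC3H12C and SDC1 (0.959 each), and SPRED1 was most like CAMK2N1 (0.950), RAPGEF5 (0.946) and ACER3 (0.944). AEN, RGS16 and IER5 were nearest to SPRY2 (0.959, 0.947 and 0.942), MUC5B, PPP6R1 and TTC17 to SPRY1 (0.907, 0.886 and 0.886), YJEFN3, ELFN2 and KIAA0513 to SPRED3 (0.928, 0.914 and 0.911), and CDK12, TMEM185B and CABLES1 to LRIG1 (0.959, 0.956 and 0.951). LRIG3 had no close match, with SLC12A7 first at 0.745. Among members, SPRY4 and SPRED1 had r = 0.863, SPRY1 and SPRED1 0.782, SPRED1 and SPRED2 0.788, ERRFI1 and SPRY2 0.820, and SPRY2 and LRIG1 0.805. SPRY2 and SPRED3 had -0.878, with SPRED3 high where SPRY2 was low, and ERRFI1 and SPRED3 had -0.776. The groups include T0 and vehicle, so r does not measure a shared response to ligand.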

How the data were processed

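RNA of 40 libraries was analysed from the deposited table of raw counts per gene, which the authors made from trimmed reads. Per the labels, FastQC, MultiQC, Trim Galore 0.6.6 and featureCounts were named in the submitters' processing notes with build GRCh38.p13. The study's methods give alignment to that build with Rsubread, and featureCounts for the summary to genes. Not given in the sources used here are the release of the annotation, whether counting used strand, and how multimapping reads were treated. The depth was 16794594 to 33387936 counts per library, and all 40 columns were used. The SE and p-values cover the spread between libraries, which may be technical, beside counting error.

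Genes with at least 1 count in 50% of the libraries of a fit were tested by edgeR 4.0.16 (R 4.3.3) with TMM scaling and quasi-likelihood F tests, in 1 fit per line (25146 genes in BT474, 24287 in BT474R) and in 1 fit of both lines for comparisons between them (24641 genes). P-values were adjusted by Benjamini-Hochberg over all genes tested. Each group had its own coefficient, and the spread of a gene was estimated over all libraries of the fit. The SE was the absolute log2 fold change divided by the square root of F. It can thus understate the spread of a group whose libraries lay further apart than most. The study itself used DESeq2, which here was an alternative (version 1.42.0), beside DESeq2's size factors, filterByExpr, no filter, 1 fit of both lines, the 4 libraries compared alone, a replicate block and leaving out each library. Summed copy rows were added after seeing the data. Fits of both lines without 1 library used the dispersion trend of the full fit. On simulated data for EGF at 12 h in BT474 with 24763 genes, edgeR called 189 of 200 changed genes, all in the right direction, and 10 unchanged ones. The changed genes were drawn from well-counted genes, the dispersion followed expression level alone, and no other group differed. Some calls on members, such as the log2 of 0.29 for SPRED1 at 12 h of EGF in BT474R, were smaller than any change simulated. The simulation does not cover such effects.

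Members and lists were chosen with earlier results of these data known. The text names the members and, per ligand comparison, up to 2 genes per list with the largest absolute log2 fold change among those called. Likeness names the top 3 genes. Promoter windows came from RefSeq (all 9 members matched) and exon lengths from GENCODE v44.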

Additional observations from a re-analysis of the deposited data

Results flagged for a closer look

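A test of the difference itself found ligand effects that changed between time points (log2, edgeR, n = 2 libraries per group). In BT474 from 1 h to 12 h, the EGF effect changed by 0.66 for SPRY1, 0.82 for SPRY4, 0.55 for SPRED1, 0.49 for SPRED2 and -0.36 for ERRFI1. Over the same step the HRG effect changed by 1.05 for SPRY1, 0.86 for SPRY4, 0.73 for SPRED1, 0.44 for SPRED2 and -0.52 for ERRFI1. From 12 h to 24 h the HRG effect on ERRFI1 changed by -0.39. In BT474R the EGF effect changed by 0.58 for SPRY4 from 1 h to 12 h and by 0.66 for ERRFI1 from 12 h to 24 h.

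Other ligand effects differed between the lines (effect in BT474R minus that in BT474, log2). With EGF the difference was 0.59 at 12 h and 1.47 at 24 h for ERRFI1, and -0.33 at 24 h for LRIG1. With HRG it was -0.70 at 1 h for ERRFI1, -0.48 for SPRED1 and -0.26 for SPRED2 at 12 h, and -0.77 for SPRY1, -0.84 for SPRY4 and -0.34 for SPRED2 at 24 h. Groups of 2 libraries are too small for a test of single outlying samples.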

How the results depend on the processing

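Of 102 calls on members, 85 kept their direction and threshold in the 6 to 8 alternatives run on each, other than leaving out a library, 69 also without each library in turn, and 0 reversed. The fit of both lines applied to 85 calls and that of the 4 libraries to 53. Counts of members that moved by more than 1.5 times follow. With DESeq2 the EGF step from 1 h to 12 h in BT474R gave 3 in place of 1 and that from 12 h to 24 h gave 2 in place of 1. Smaller moves with DESeq2 were 6 to 4 and 3 to 2 for vehicle at 1 h and 24 h in BT474, 4 to 5 for vehicle at 1 h and 6 to 5 for EGF at 12 h in BT474R. With no filter the steps were 3 and 3, and the HRG steps in BT474R gave 1 and 1 in place of 0 and 0. With filterByExpr the first step gave 2, and HRG against EGF at 12 h in BT474 gave 1 in place of 0. With DESeq2's size factors or summed copy rows the EGF effect at 24 h between lines gave 1 in place of 2, and with summed rows the HRG effect at 12 h also gave 1 in place of 2. In 1 fit of both lines, HRG against EGF at 1 h and the HRG step to 24 h in BT474 gave 0 in place of 1, and the EGF step to 12 h in BT474R gave 4. With only the 4 libraries compared, HRG at 24 h in BT474R gave 0 in place of 3. In these fits HRG against EGF in BT474 gave 0 in place of 1 at 1 h and 1 in place of 0 at 12 h. That comparison gave 0 in place of 4 at 24 h in BT474R, and 3 in place of 7 in all. Cause was not tested.

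Counts of all genes called moved by more than 1.5 times as follows. With DESeq2 the EGF and HRG steps to 24 h in BT474R went from 45 to 91 and 7 to 24. With no filter the shifts in BT474R were 111 to 226 for EGF at 1 h, 41 to 151, 1000 to 1577 and 675 to 1147 for HRG at the successive times, 12 to 48 and 345 to 628 for HRG against EGF at 1 h and 12 h, 45 to 261 for the EGF step to 24 h, 241 to 558 and 7 to 105 for the HRG steps, and 544 to 892 for vehicle at 1 h. In BT474 they were 35 to 96 and 193 to 402 for HRG against EGF at 1 h and 24 h and 130 to 230 for the EGF step to 24 h, and between lines 34 to 130 and 134 to 225 for EGF and HRG at 1 h. In 1 fit of both lines, HRG against EGF in BT474 went from 35 to 10, 545 to 259 and 193 to 55, and the EGF and HRG steps to 24 h from 130 to 31 and 628 to 345. In BT474R, HRG went from 41 to 68, 1000 to 1606 and 675 to 1137, HRG against EGF at 1 h from 12 to 22, the EGF step to 24 h from 45 to 147, the HRG steps from 241 to 568 and 7 to 32, and vehicle at 1 h from 544 to 873. With only the 4 libraries, EGF at 1 h in BT474 went from 550 to 240, EGF at 1 h and 12 h in BT474R from 111 to 279 and 2910 to 5176, HRG there from 41 to 121, 1000 to 566 and 675 to 0, HRG against EGF in BT474 from 35 to 0, 545 to 1242 and 193 to 12, and at 24 h in BT474R from 1258 to 0. The shares of all genes in the report move with these counts.

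A replicate block lost 0 of the 102 calls and gave 1 in place of 0 for HRG against EGF at 12 h in BT474 and 2 in place of 1 for the EGF step to 12 h in BT474R. Replicate numbers were not taken to pair the samples, since not every pair of groups had deviations correlated above 0.1. That held in 15 of 45 pairs in BT474 and 18 of 45 in BT474R, and at the same time point in 4 of 9 in each line, with r up to 0.415 in BT474 and 0.555 in BT474R.

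Leaving out 1 library, members called ranged from 0 to 3 for vehicle at 24 h against T0 and from 0 to 1 for HRG against EGF at 1 h and for the HRG step to 24 h in BT474. In BT474R they ranged from 2 to 3 and from 3 to 6 for vehicle at 1 h and 24 h, from 1 to 2 for HRG at 1 h, from 1 to 4 for HRG at 24 h, from 1 to 2 and from 0 to 2 for the EGF steps, from 0 to 1 for the HRG step to 24 h, and were 1 for HRG against EGF at 12 h. Between lines they ranged from 0 to 2 for HRG at 12 h and from 1 to 2 for EGF at 24 h. Low counts limit SPRY2, with 31 to 125 per library.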
